A study of Homo sapiens with 12 samples.

Results

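The AP-1 factors described here were FOS, FOSB, FOSL1, FOSL2, JUN, JUNB, JUND, ATF3, BATF3 and MAFF, 10 genes of the 18132 that the arrays measured through a probe set assigned to a single gene. They were taken by name as members of the FOS and JUN families and related bZIP genes, and all 10 were measured. The samples were A549 monolayers, a human lung adenocarcinoma line often used as a model of alveolar epithelium, grown on uncoated plastic. RNA of 12 samples was measured on Affymetrix PrimeView arrays in 4 groups of 3. These were cells heat shocked for 2 h and then wounded for 4 h, and cells heat shocked for 2 h. The others were cells wounded for 4 h, and untreated control cells. The labels do not say how long after heat shock the cells that were not wounded were collected, so the time between heat shock and lysis cannot be compared between the groups. They do not say that the 3 samples of a group came from separate cultures either, so p-values measure the spread between these samples, which may be technical. In bulk RNA, a change in the share of cells that express a gene and a change in the RNA per cell cannot be told apart.

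AP-1 is a transcription factor made of paired basic leucine zipper (bZIP) proteins. A FOS family protein (FOS, FOSB, FOSL1 or FOSL2) pairs with a JUN family protein (JUN, JUNB or JUND), and JUN proteins can also pair with each other. The pair binds the AP-1 site TGACTCA, and pairs that hold an ATF protein favour the related cyclic AMP response element TGACGTCA. FOS, FOSB, JUN, JUNB and ATF3 are immediate early genes, transcribed within minutes of a growth factor, stress or wound signal through MAP kinases that act on factors already bound to their promoters, and their mRNAs are short-lived. In wounded epithelium AP-1 is known for driving genes of migration and matrix breakdown.

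The promoters of FOS, JUN and MAFF are shown because these genes followed different treatments in the values below: FOS was highest after wounding, JUN after both treatments, and MAFF after heat shock with or without wounding. Each sequence is the 250 bases before the RefSeq start of the gene in GRCh38.p14, 5′ to 3′ on the gene's own strand. They are chr14:75278578-75278827 on the plus strand for FOS, chr1:58784048-58784297 on the minus strand for JUN, and chr22:38201744-38201993 on the plus strand for the first of the 2 MAFF starts. Capitals mark the motif matches named in the next paragraph.
FOS: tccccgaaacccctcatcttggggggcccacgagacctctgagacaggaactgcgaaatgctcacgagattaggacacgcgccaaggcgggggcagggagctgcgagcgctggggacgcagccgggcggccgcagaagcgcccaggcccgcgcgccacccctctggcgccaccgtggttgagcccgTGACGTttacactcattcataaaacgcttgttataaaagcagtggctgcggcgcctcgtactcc
JUN: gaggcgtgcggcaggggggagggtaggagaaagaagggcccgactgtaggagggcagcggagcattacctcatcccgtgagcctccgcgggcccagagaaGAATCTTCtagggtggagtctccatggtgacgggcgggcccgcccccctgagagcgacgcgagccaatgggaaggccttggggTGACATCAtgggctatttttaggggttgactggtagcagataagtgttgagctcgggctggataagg
MAFF: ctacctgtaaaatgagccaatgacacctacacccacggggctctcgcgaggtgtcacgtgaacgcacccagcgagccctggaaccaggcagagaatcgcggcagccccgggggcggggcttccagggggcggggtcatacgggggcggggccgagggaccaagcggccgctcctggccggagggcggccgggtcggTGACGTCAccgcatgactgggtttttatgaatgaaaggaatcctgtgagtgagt

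The RefSeq table held 10 promoters for 8 of the 10 genes, and both strands were searched. The FOS window held the core TGACGT of the cyclic AMP response element at bases -64 to -59 from the start, a core that 7.1% of the 35116 promoters in the table held. FOSB and FOSL2 held the same core at -60 to -55 and at -66 to -61. The JUN window held TGACATCA, a variant of the element present in 2.37% of promoters, at -67 to -60. It also held GAATCTTC at -150 to -143, a match to the pair of inverted heat shock units GAANNTTC that 5.78% of promoters held. The first MAFF start and JUND held the whole element TGACGTCA, found in 1.65% of promoters, at -54 to -47 and at -200 to -193, and the core overlaps it there. JUND held the core once more, reversed, at -87 to -82. The first ATF3 start held TGACATCA at -123 to -116. In the JUNB window and at the second starts of ATF3 and MAFF, none of the 6 motifs was found. The AP-1 site TGACTCA (4.2% of promoters) and the SRF site, known as the CArG box (1.16%), were in none of the 10 windows. Bases outside the windows, such as those further upstream, were not searched. The search therefore cannot say whether FOS or the other genes hold either site there. TGACGT and TGACATCA were added to the search after these sequences had been seen, and a match is only a run of letters.

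One of the 12 arrays stood apart: heat shocked and wounded replicate 2 had the lowest correlations with its own group (0.994 and 0.9951) and an interquartile range of 3.98, against 4.13 to 4.24 on the other 11. The treatments could be read from other genes. HSPA6, a heat shock protein induced by heat, averaged 10.09 in heat shocked cells, against 4.30 in control cells. EGR1, an immediate early gene, was 2.99 ± 0.27 log2 units higher in wounded than in control cells. It was also higher after heat shock alone, by 1.03 ± 0.27, so it does not mark the wound only. GAPDH differed by at most 0.04 log2 units in each comparison with control. The epithelial genes EPCAM, CDH1, KRT8 and KRT18 had control means of 9.13, 9.90, 13.23 and 13.83, whereas the 7 alveolar type II markers were spread from SFTPA1, LAMP3 and SFTPD at 2.26, 2.72 and 3.49, through NKX2-1, SFTPB and SFTPC at 4.78, 5.26 and 6.08, to ABCA3 at 7.65. The 8 measured leukocyte genes had control means from 2.27 for PTPRC, which marks all leukocytes, to 6.84 for CD68, with CD14 at 5.84 and NKG7 at 4.92. The summed level of 7 fibroblast genes ranged over 26.6 to 28.0 in heat shocked and wounded cells, 26.2 to 26.9 in heat shocked cells, 25.5 to 26.4 in wounded cells and 25.9 to 26.6 in control cells. As a guide to dim signal, the upper quartile over 14 leukocyte and endothelial genes in control cells was 4.70, and HSPA6 in control cells was below that. The main probe set of each of the 10 AP-1 genes was above that in every group, with the lowest mean, 5.56, for MAFF in control cells.

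Levels below are log2 probe set levels with the SD over 3 arrays. Differences are in log2 units with their standard error. Adjusted p-values are from limma over all 18132 genes, with a call at an adjusted p under 0.05, and the comparisons with control share the same 3 control arrays.

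**Figure D1:**
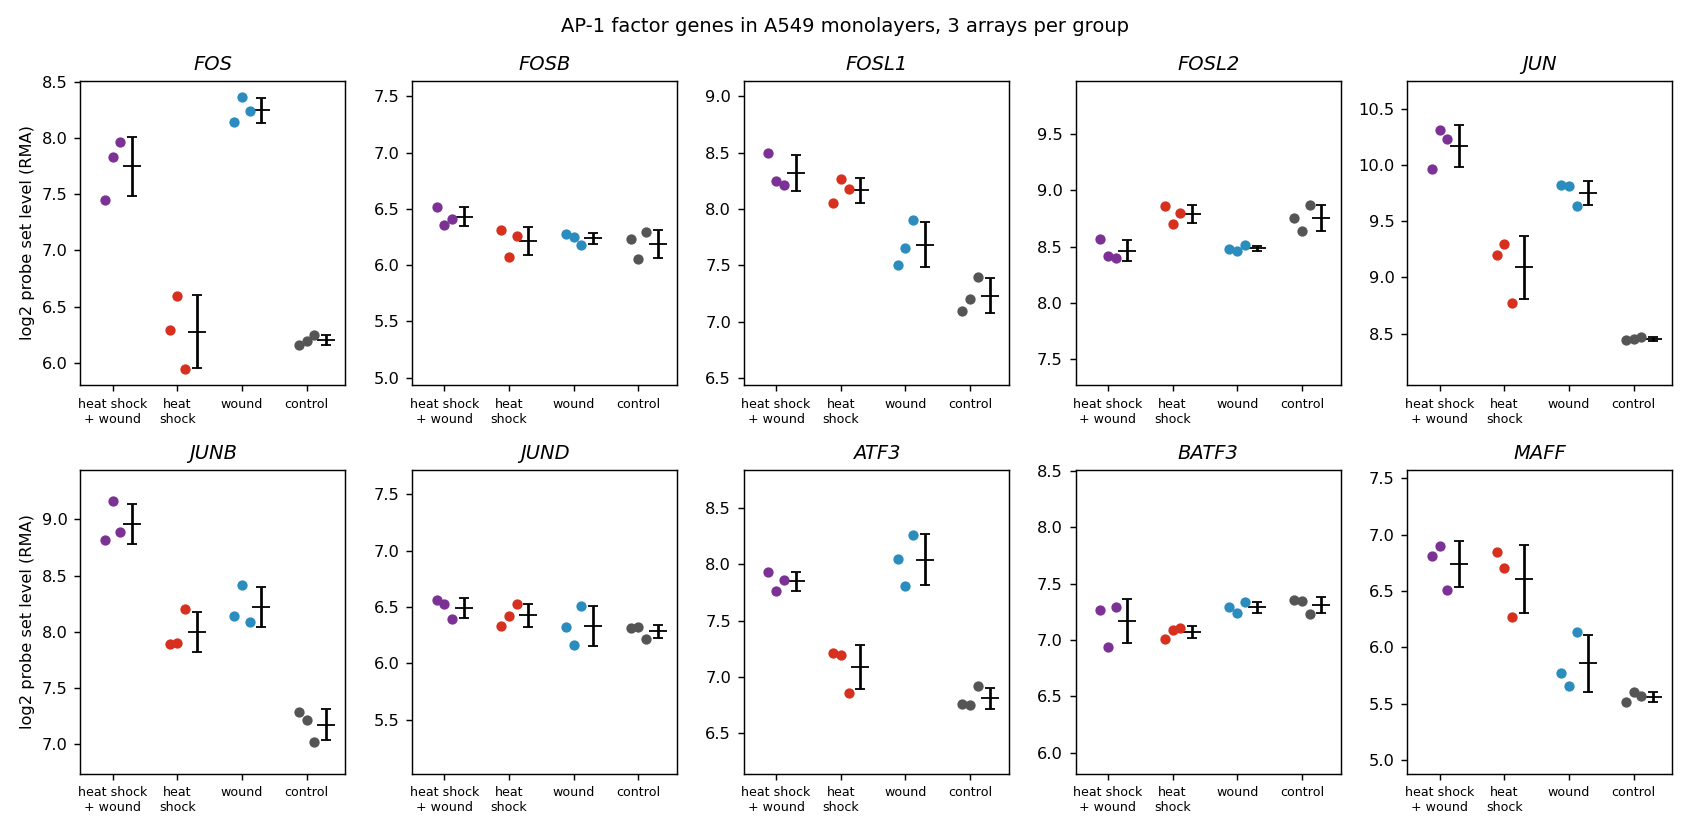
Log2 level of the 10 AP-1 genes on each of the 12 arrays, 1 panel per gene with an equal span of the vertical axis; dots are arrays, bars the mean ± SD of 3, and groups run from heat shocked and wounded through heat shocked and wounded alone to control. FOS is highest in the wounded cells (8.14 to 8.36), JUN and JUNB in the cells given both treatments, and FOSL1 and MAFF in both heat shocked groups.

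FOS, the founding partner of JUN and a classic immediate early gene (chr14:75278828-75282230, GRCh38.p14), followed the wound. It measured 7.45, 7.83 and 7.96 in heat shocked and wounded cells, 6.29, 6.60 and 5.95 in heat shocked cells, 8.14, 8.36 and 8.24 in wounded cells, and 6.16, 6.20 and 6.25 in control cells. The wounded arrays stood above every other array, those of both treatments came next without overlap, and heat shocked and control arrays overlapped. FOS rose 4.13-fold in wounded cells against control (2.04 ± 0.15, adjusted p = 2.66e-05). With both treatments it was 2.91-fold above control (1.54 ± 0.15, adjusted p = 1.58e-05) and 2.76-fold above heat shock alone (1.46 ± 0.15, adjusted p = 0.000175). Heat shock alone differed from control by 0.08 ± 0.15 (adjusted p = 0.826). In cells given both treatments FOS was 0.50 ± 0.15 below wounded cells, with an adjusted p of 0.0453 that passed narrowly. That call was lost without heat shocked and wounded replicate 1 (-0.35, adjusted p = 0.152) or replicate 2 (-0.54, adjusted p = 0.072), without any 1 of the wounded arrays (-0.56 to -0.45, adjusted p = 0.0742 to 0.134) or control arrays (adjusted p = 0.0604 to 0.0621), and without heat shocked replicate 1 (adjusted p = 0.061).

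FOSB (chr19:45467996-45475179), a close relative of FOS, gave readings that depended on the probe set. Its brighter probe set measured 6.52, 6.36 and 6.41 in heat shocked and wounded cells, 6.31, 6.07 and 6.26 in heat shocked cells, 6.28, 6.25 and 6.18 in wounded cells, and 6.23, 6.05 and 6.29 in control cells. The arrays of both treatments lay just above all others, but no difference was called, the nearest being 0.24 ± 0.08 against control (adjusted p = 0.0567), and this one passed without heat shocked replicate 2 (adjusted p = 0.0408) or control replicate 3 (adjusted p = 0.0479). It also passed with another quantile normalization (0.0274), cyclic loess (0.0223), a minimum mean of 5 (0.0279), array weights (0.0231), a replicate block (0.0319) and the mean of both probe sets (9.08e-07). The dimmer probe set measured 6.39, 7.04 and 6.53 in heat shocked and wounded cells, 5.35, 5.31 and 5.34 in heat shocked cells, 6.38, 6.41 and 6.49 in wounded cells, and 4.57, 4.96 and 4.95 in control cells. There both wounded groups lay above both groups without a wound. Among the 44987 probe sets tested one by one, it was 3.03-fold higher in wounded than in control cells (1.60 ± 0.14, adjusted p = 6.73e-05) and 3.55-fold higher with both treatments than in control (1.83 ± 0.14, adjusted p = 2.15e-06). Without heat shocked and wounded replicate 2, which holds the value 7.04, that last difference was 1.63 (adjusted p = 1.77e-06). Its difference after heat shock alone, 0.51 ± 0.14, passed at an adjusted p of 0.0446 and was lost without any 1 of the heat shocked, wounded or control arrays, with adjusted p-values of 0.0594 (without wounded replicate 3) to 0.186 (without control replicate 1). Which of the 2 probe sets reads FOSB better was not tested.

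FOSL1 (chr11:65892049-65900545), also called FRA1, is a FOS family member linked to epithelial migration. It measured 8.50, 8.25 and 8.21 in heat shocked and wounded cells, 8.05, 8.27 and 8.18 in heat shocked cells, 7.50, 7.65 and 7.90 in wounded cells, and 7.09, 7.20 and 7.40 in control cells. Both heat shocked groups overlapped each other and lay above the groups that were not heat shocked. Heat shock alone gave 1.91-fold the control level (0.94 ± 0.12, adjusted p = 0.000284) and both treatments 2.13-fold (1.09 ± 0.12, adjusted p = 3.16e-05). With both treatments FOSL1 was 1.55-fold above wounding alone (0.63 ± 0.12, adjusted p = 0.00361), and against heat shock alone it differed by 0.16 ± 0.12 (adjusted p = 0.561). The wounded arrays were all above the control arrays, by 0.46 ± 0.12, and did not pass (adjusted p = 0.0557), though they did without heat shocked and wounded replicate 1 (adjusted p = 0.0466). Heat shocked cells were 0.48 ± 0.12 above wounded cells (adjusted p = 0.0208), a call lost without wounded replicate 1 (0.39, adjusted p = 0.096), without wounded replicate 2 (0.46, adjusted p = 0.0708), without heat shocked replicate 2 (0.42, adjusted p = 0.0811) or without heat shocked replicate 3 (0.47, adjusted p = 0.0567).

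FOSL2 (chr2:28392858-28417317), or FRA2, moved little and in the other direction. Its levels were 8.57, 8.42 and 8.40 in heat shocked and wounded cells, 8.86, 8.70 and 8.80 in heat shocked cells, 8.48, 8.46 and 8.51 in wounded cells, and 8.75, 8.64 and 8.87 in control cells. Both wounded groups lay below both groups without a wound. The difference was -0.29 ± 0.08 for both treatments against control (adjusted p = 0.0143), -0.32 ± 0.08 for both against heat shock alone (adjusted p = 0.0317) and 0.30 ± 0.08 for heat shock against wounding (adjusted p = 0.023). Wounding alone gave -0.27 ± 0.08 against control (adjusted p = 0.086). The first call was lost without control replicate 3 (-0.23, adjusted p = 0.0631) and, of the 5 FOSL2 probe sets, only the main one was called in that comparison, the others lying between -0.22 and 0.19. The second was lost without heat shocked and wounded replicate 2 or 3, heat shocked replicate 1 or 3, wounded replicate 1 or control replicate 1 (adjusted p = 0.0519 to 0.124). The third was lost without heat shocked replicate 1 or 3 or wounded replicate 1 or 2 (adjusted p = 0.0592 to 0.0999).

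JUN (chr1:58780791-58784047), the main partner of FOS, was raised by each treatment. It measured 9.96, 10.31 and 10.23 in heat shocked and wounded cells, 9.20, 9.30 and 8.77 in heat shocked cells, 9.82, 9.81 and 9.63 in wounded cells, and 8.44, 8.45 and 8.47 in control cells. On the main probe set the 4 groups did not overlap. JUN rose 3.28-fold with both treatments (1.71 ± 0.13, adjusted p = 1.5e-06), 1.55-fold with heat shock (0.64 ± 0.13, adjusted p = 0.00614) and 2.46-fold with wounding (1.30 ± 0.13, adjusted p = 0.00013), each against control. With both treatments it was 2.11-fold above heat shock alone (1.08 ± 0.13, adjusted p = 0.000415). Heat shocked cells were 0.66 ± 0.13 lower than wounded cells, a difference of -0.66 (adjusted p = 0.00526). The other 3 JUN probe sets gave -0.56, -0.49 and -0.34 there. The last of these overlapped between the groups and was not called among all probe sets (adjusted p = 0.243). Both treatments exceeded wounding alone by 0.41 ± 0.13, which passed narrowly (adjusted p = 0.0473). This call was lost without heat shocked and wounded replicate 2 (0.34, adjusted p = 0.15) or replicate 3 (0.38, adjusted p = 0.102), without any 1 of the wounded arrays (0.35 to 0.45, adjusted p = 0.0842 to 0.151) or control arrays (adjusted p = 0.0639 to 0.0647), and without heat shocked replicate 1 (adjusted p = 0.0567). The other 3 JUN probe sets gave 0.56, 0.56 and 0.73 in that comparison and were called among all probe sets, at adjusted p-values of 0.00457, 0.0201 and 0.00882.

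JUNB (chr19:12791486-12793315), which pairs with FOS proteins and can temper JUN, measured 8.82, 9.16 and 8.89 in heat shocked and wounded cells, 7.89, 7.90 and 8.20 in heat shocked cells, 8.14, 8.42 and 8.09 in wounded cells, and 7.29, 7.22 and 7.02 in control cells. Heat shocked and wounded arrays overlapped between the single treatments, all above control and all below the arrays of both treatments. JUNB rose 3.42-fold with both treatments (1.78 ± 0.12, adjusted p = 9.67e-07), 1.76-fold with heat shock (0.82 ± 0.12, adjusted p = 0.00108) and 2.06-fold with wounding (1.04 ± 0.12, adjusted p = 0.000465). Both treatments gave 1.67-fold the level of wounding alone (0.74 ± 0.12, adjusted p = 0.00191) and 1.94-fold that of heat shock alone (0.96 ± 0.12, adjusted p = 0.000718). Heat shock and wounding alone differed by -0.22 ± 0.12 (95% interval -0.49 to 0.05, adjusted p = 0.333). JUNB had no other single-gene probe set to compare, and by its Affymetrix suffix this probe set may also match other transcripts.

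JUND (chr19:18279694-18281622), the JUN family member known for steady expression, measured 6.56, 6.53 and 6.39 in heat shocked and wounded cells, 6.33, 6.42 and 6.53 in heat shocked cells, 6.32, 6.16 and 6.51 in wounded cells, and 6.31, 6.32 and 6.22 in control cells. The groups differed by 0.21 or less and no comparison was called. The 95% interval for both treatments against control ran from 0.01 to 0.41 (adjusted p = 0.123).

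ATF3 (chr1:212565407-212620777), a stress-induced bZIP protein that pairs with JUN proteins or with itself, followed the wound as FOS did. Its levels were 7.93, 7.76 and 7.86 in heat shocked and wounded cells, 7.21, 7.19 and 6.86 in heat shocked cells, 8.05, 7.81 and 8.26 in wounded cells, and 6.76, 6.75 and 6.92 in control cells. Both wounded groups overlapped each other and stood above both groups without a wound. ATF3 rose 2.35-fold in wounded cells (1.23 ± 0.12, adjusted p = 0.000117) and 2.05-fold with both treatments (1.04 ± 0.12, adjusted p = 4.84e-05), each against control. It was 1.70-fold higher with both treatments than with heat shock alone (0.76 ± 0.12, adjusted p = 0.00278). Heat shock alone gave 0.27 ± 0.12 against control (adjusted p = 0.166) and -0.96 ± 0.12 against wounding (adjusted p = 0.000309). Both treatments against wounding alone gave -0.19 ± 0.12 (95% interval -0.45 to 0.06, adjusted p = 0.313).

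BATF3 (chr1:212686417-212699840), a small bZIP protein best known in dendritic cells, measured 7.27, 6.94 and 7.29 in heat shocked and wounded cells, 7.01, 7.09 and 7.11 in heat shocked cells, 7.29, 7.24 and 7.34 in wounded cells, and 7.36, 7.35 and 7.23 in control cells. Heat shocked arrays lay below the wounded and the control arrays. The difference between heat shocked and control cells was -0.24 ± 0.09 and was not called (adjusted p = 0.0999). Against wounded cells it was -0.22 ± 0.09 (adjusted p = 0.159). Both passed without heat shocked and wounded replicate 2 (adjusted p = 0.0222 and 0.0406).

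MAFF (chr22:38201994-38216511) encodes a small MAF protein, a bZIP factor without an activation domain that pairs with NFE2-related factors. It measured 6.81, 6.90 and 6.51 in heat shocked and wounded cells, 6.85, 6.70 and 6.27 in heat shocked cells, 5.77, 5.66 and 6.14 in wounded cells, and 5.51, 5.60 and 5.57 in control cells. As with FOSL1, both heat shocked groups overlapped each other and stood above both groups that were not heat shocked. MAFF rose 2.07-fold with heat shock (1.05 ± 0.15, adjusted p = 0.000922) and 2.26-fold with both treatments (1.18 ± 0.15, adjusted p = 0.000147), each against control. It was 1.84-fold higher with both treatments than with wounding (0.88 ± 0.15, adjusted p = 0.00259) and 1.68-fold higher with heat shock than with wounding (0.75 ± 0.15, adjusted p = 0.00792). Wounding alone gave 0.30 ± 0.15 against control (adjusted p = 0.46), and both treatments against heat shock alone gave 0.13 ± 0.15 (adjusted p = 0.744).

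**Figure D2:**
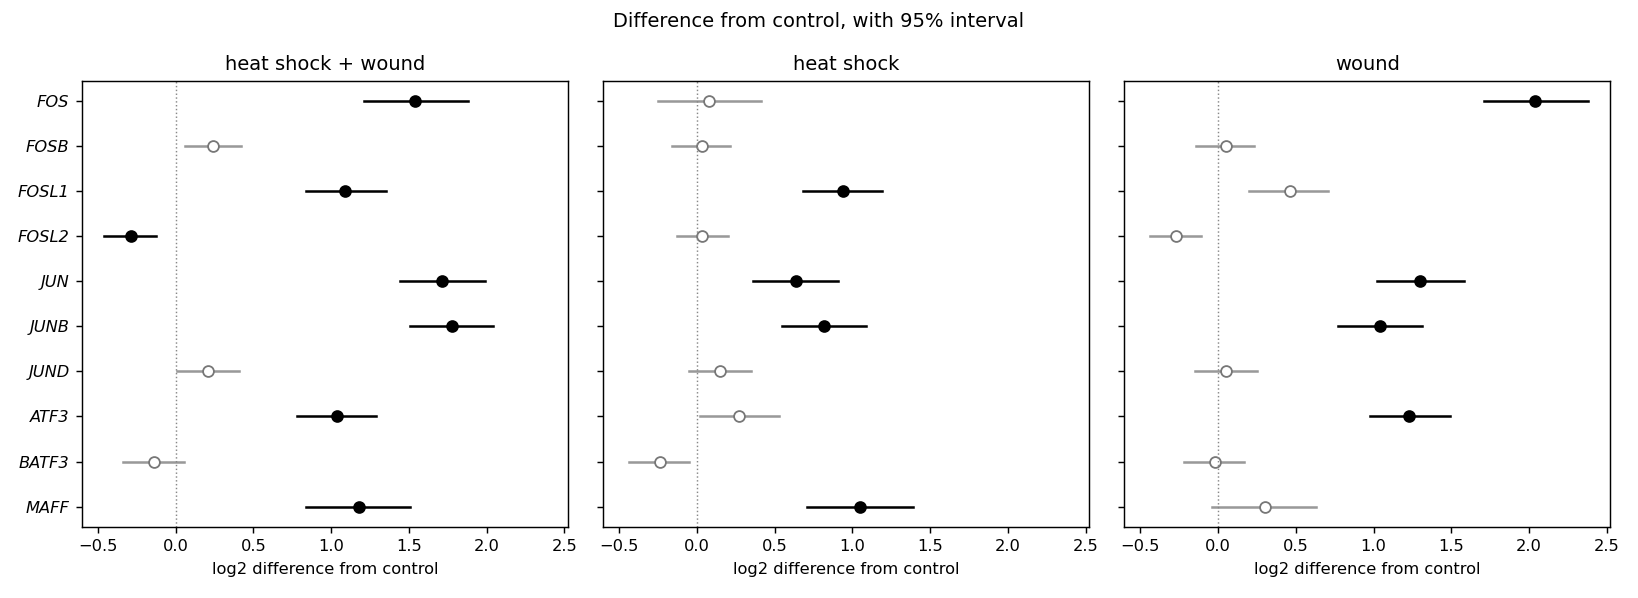
Difference from control of the 10 AP-1 genes in log2 units for heat shock with wounding, heat shock and wounding; points are the limma estimates, lines 95% intervals, and filled points have an adjusted p under 0.05 over all genes. FOS and ATF3 are filled for wounding and for both treatments, FOSL1 and MAFF for heat shock and for both, and JUN and JUNB for all 3; FOSL2 is filled below 0 with both treatments (-0.29).

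Counted together, heat shock and wounding raised 6 of the 10 genes against control (FOS, FOSL1, JUN, JUNB, ATF3 and MAFF) and lowered 1 (FOSL2). Over all genes 23.1% were called in that comparison, 8.66% higher and 14.4% lower. The median difference was 1.06 over the 10 members, against -0.01 over all genes. Without heat shocked and wounded replicate 2, the array that stood apart, the same 7 genes were called, at an adjusted p of 0.000103 for FOS and differences of 1.13 for FOSL1, 1.64 for JUN, 1.67 for JUNB, 1.08 for ATF3, 1.10 for MAFF and -0.27 for FOSL2 (adjusted p = 0.0468). Heat shock alone raised 4 (FOSL1, JUN, JUNB and MAFF) and lowered 0, where 12.9% of all genes were called, 4.93% higher and 7.92% lower. The medians were 0.21 for the members and -0.03 for all genes. Wounding alone also raised 4 (FOS, JUN, JUNB and ATF3) and lowered 0, where 3.57% of all genes were called, 2.27% higher and 1.31% lower. The medians were 0.38 and -0.03. JUN and JUNB were the 2 genes called in all 3 comparisons, which share their control arrays. These counts read each gene through its main probe set, and for FOSB the reading depended on the probe set. Tested in limma among all probe sets, the dimmer FOSB probe set was higher after wounding (1.60 ± 0.14, adjusted p = 6.73e-05). It was also higher with both treatments (1.83 ± 0.14, adjusted p = 2.15e-06), and after heat shock it passed narrowly (0.51 ± 0.14, adjusted p = 0.0446).

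When cells given both treatments were set against wounded cells, 4 members were higher (FOSL1, JUN, JUNB and MAFF) and 1 was lower (FOS). In that comparison 14.9% of all genes were called, 6.31% higher and 8.6% lower, and the medians were 0.18 for the members and 0.02 for all genes. The count of 5 fell to 3 without any 1 of 8 arrays (heat shocked and wounded replicate 2, heat shocked replicate 1 and each wounded and control array), because FOS and JUN were both lost. Against heat shocked cells, cells given both treatments had 4 members higher (FOS, JUN, JUNB and ATF3) and 1 lower (FOSL2). There 4.3% of all genes were called, 2.71% higher and 1.58% lower, and the medians were 0.19 and 0.01.

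Heat shocked cells set directly against wounded cells had 3 members higher (FOSL1, FOSL2 and MAFF) and 3 lower (FOS, JUN and ATF3). Over all genes 10.5% were called, 4.51% higher and 6.01% lower. FOS had the widest gap, at -1.97 ± 0.15 (adjusted p = 1.08e-05). In this direct test the main probe sets of FOS and ATF3 on one side and FOSL1 and MAFF on the other differed between the single treatments in opposite directions. Among the other FOSL1 probe sets, tested one by one, differences of 0.54 and 0.55 were called. Those of 0.34, 0.11 and 0.09 were not (adjusted p = 0.202, 0.762 and 0.788). The other FOSL2 probe sets gave 0.44, which was called, and 0.24, 0.06 and -0.35, which were not. The second MAFF probe set averaged 4.09 in heat shocked and 3.89 in wounded cells, both under the dim level of 4.70.

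**Figure D3:**
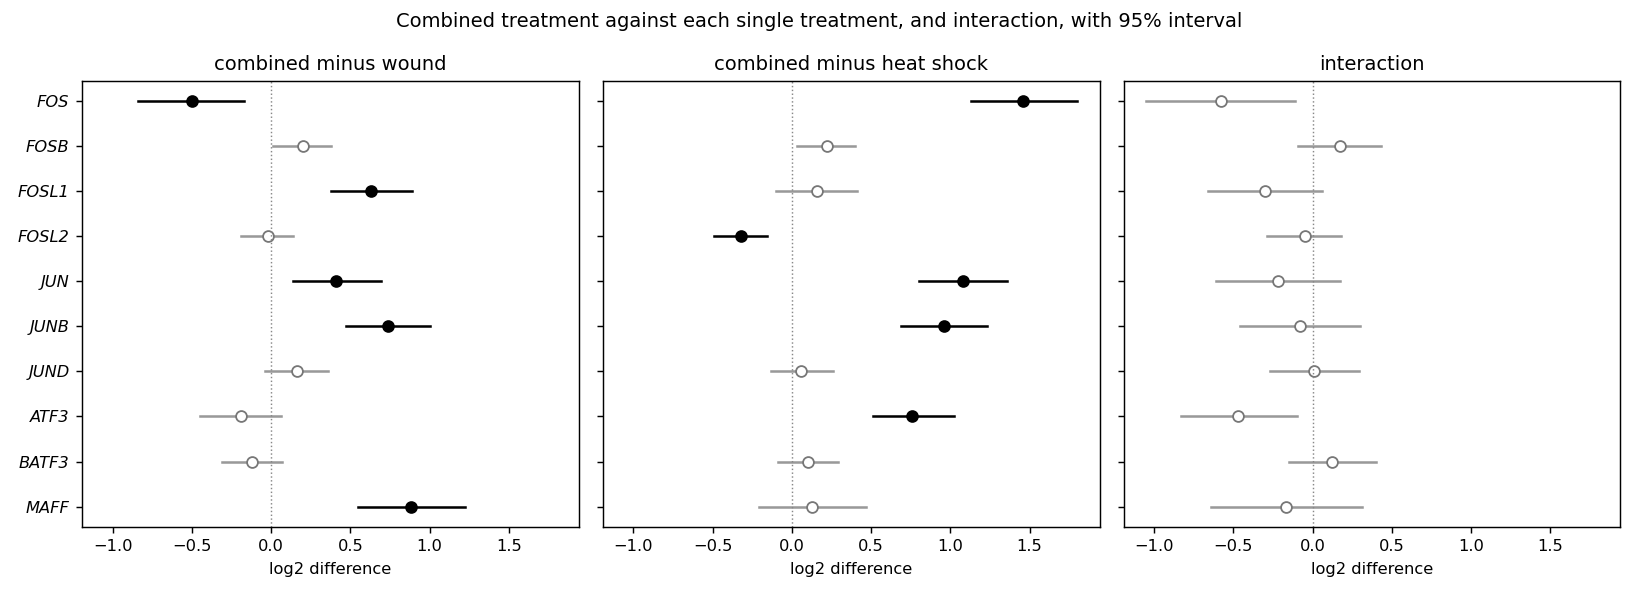
Difference in log2 units between cells given both treatments and cells given wounding alone or heat shock alone, for the 10 AP-1 genes. The last panel shows the interaction of heat shock and wounding, where no point is filled. Points are limma estimates, lines 95% intervals, and filled points have an adjusted p under 0.05. JUNB is above both single treatments (0.74 and 0.96), FOSL1 and MAFF pass against wounding and not against heat shock, and ATF3 against heat shock and not against wounding.

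The interaction asked whether the effect of wounding differed between heat shocked cells and cells that were not heat shocked. In limma 0 of the 10 members passed, and over all genes 0.00552% passed, which was 1 gene, with 0.00552% higher and 0% lower. At an unadjusted p under 0.05 there were 2 members and 1302 genes. FOS and ATF3 were those 2: the combined effect on FOS was 1.54, against 2.12 for the sum of the single effects, an interaction of -0.58 (95% interval -1.05 to -0.11, adjusted p = 0.625). For ATF3 the combined effect was 1.04, against a sum of 1.51, an interaction of -0.47 (95% interval -0.83 to -0.10, adjusted p = 0.608). JUNB came closest to the sum among the genes raised by both treatments, with 1.78 for the combination and 1.86 for the sum (95% interval of the interaction -0.46 to 0.30). JUN gave 1.71 against 1.93, FOSL1 1.09 against 1.39, and MAFF 1.18 against 1.34. Their 95% intervals were -0.61 to 0.17 for JUN, -0.66 to 0.06 for FOSL1 and -0.64 to 0.31 for MAFF, so departures from the sum within those bounds are not excluded.

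**Figure D4:**
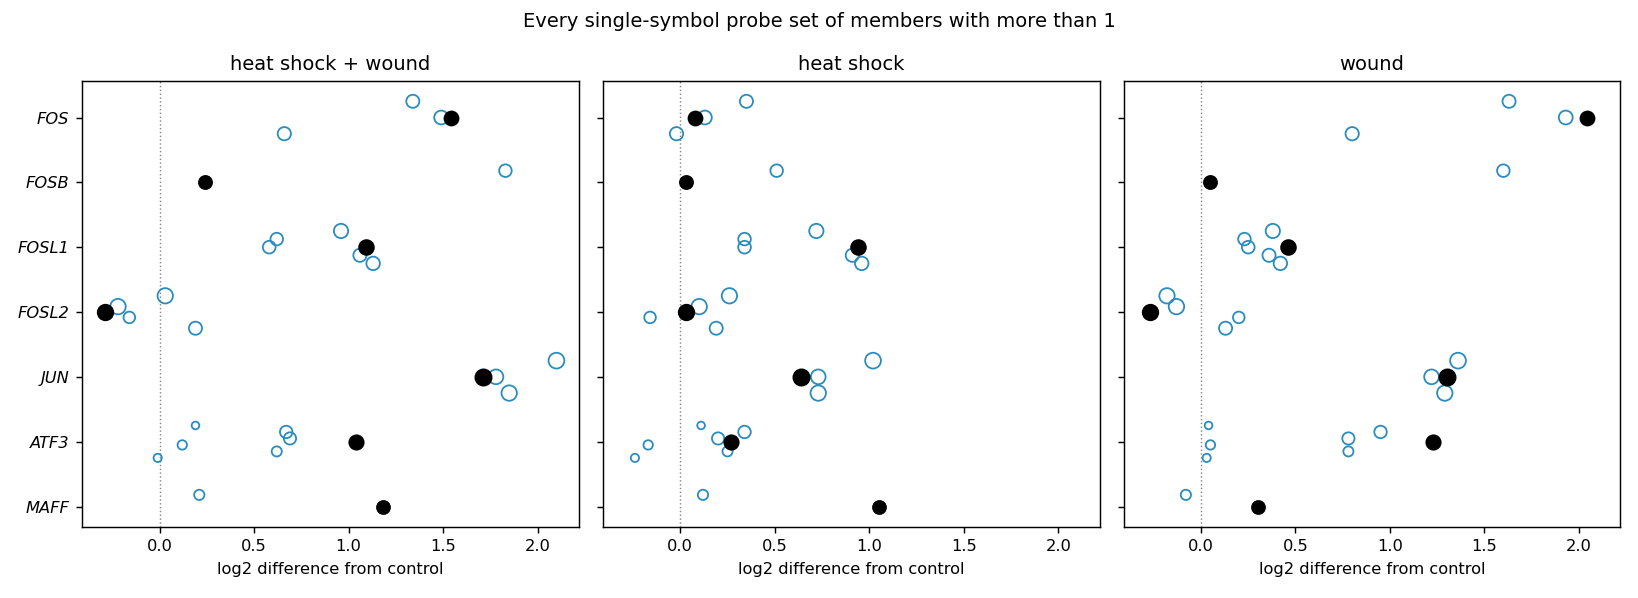
Difference in log2 units for every single-gene probe set of the AP-1 genes in the comparisons with control; black points are the main probe set of each gene, open blue circles its others, and circle size follows the mean level. The 4 JUN probe sets lie together, whereas the 2 FOSB probe sets are far apart after wounding (1.60 and 0.05).

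The 10 genes had 33 probe sets, and 7 genes had several. Tested one by one among 44987 probe sets, all 4 FOS probe sets rose after wounding (0.80 to 2.04) and with both treatments (0.66 to 1.54), and 0 of 4 were called after heat shock (-0.02 to 0.35). All 4 gave a negative difference for both treatments against wounding (-0.50 to -0.15), and none was called there, the lowest adjusted p being 0.0517. The 4 JUN probe sets were called in every comparison with control, at 0.64 to 1.02 for heat shock, 1.22 to 1.36 for wounding and 1.71 to 2.10 for both. Of 6 FOSL1 probe sets, 4 were called after heat shock (0.72 to 0.96) and 6 with both treatments (0.58 to 1.13), and after wounding 0 were called (0.23 to 0.46). Of 7 ATF3 probe sets, 4 were called after wounding (0.78 to 1.23) and 3 were not (0.03 to 0.05). Those 3 had means of 2.44 to 3.46, and 1 of the 4 called also lay under the dim level of 4.70, with a mean of 3.92 and a difference of 0.78 (adjusted p = 0.00235). The second MAFF probe set, with a mean of 4.03, gave 0.12 for heat shock and 0.21 for both treatments and was not called. The main probe sets of FOSB, JUNB, JUND and MAFF carry Affymetrix's suffix for probes that may also match other transcripts, and that of FOSL1 the suffix for probes shared by several transcripts.

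Across the 12 arrays, FOS and ATF3 ran most closely together (Pearson r = 0.95), followed by FOSL1 with MAFF and JUN with JUNB (r = 0.92 each). FOS had r = 0.25 with FOSL1, 0.11 with MAFF and -0.90 with FOSL2. These coefficients describe 12 arrays in 4 groups that share their treatments. The 3 genes most like FOS over the arrays were CCN2 (r = 0.985), COXFA4L3 (0.974) and NFKB1 (0.969). EFNA1 (0.948), FOS (0.946) and CCN2 (0.938) were most like ATF3. For JUN these were B3GNT5 (0.992), ITGA2 (0.990) and C3orf52 (0.989), and for JUNB they were B4GALT1 (0.993), PNMA1 (0.982) and FURIN (0.978). TRIML2 (0.958), RIN2 (0.957) and MAP2K3 (0.954) came closest to FOSL1. KDM5A (0.966), KLHL25 (0.965) and GMEB1 (0.965) came closest to MAFF, and CRIM1 (0.926), PIM3 (0.920) and ABCC2 (0.918) to FOSL2.

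Genes known to be driven by AP-1 were read as a list of 30, of which 27 were measured. With both treatments 16 were higher than in control and 0 lower, with a median of 0.49. Heat shock raised 8 (median 0.09) and wounding raised 8 (median 0.20), and neither lowered any. Over all genes the shares called higher were 8.66% with both treatments, 4.93% with heat shock and 2.27% with wounding, and the medians were -0.01, -0.03 and -0.03. The matrix metalloproteinases MMP1 and MMP10, which cut collagen and other matrix, changed most. MMP1 averaged 7.48 with both treatments, 5.13 with heat shock, 5.32 with wounding and 3.52 in control cells. Its difference from control was 3.96 ± 0.18 with both treatments (adjusted p = 3.88e-08), 1.61 ± 0.18 with heat shock and 1.80 ± 0.18 with wounding. MMP10 averaged 7.22, 4.97, 5.27 and 3.38 in the same groups, a difference of 3.84 ± 0.19 with both treatments (adjusted p = 8.9e-08). The control levels of both were under the dim level of 4.70, so their folds over control are approximate. IL11, a cytokine of the IL6 family, was higher by 2.27 ± 0.13 with both treatments, 1.16 ± 0.13 with heat shock and 0.88 ± 0.13 with wounding. LAMB3, a laminin chain of the epithelial basement membrane, was higher by 1.57 ± 0.10 with both treatments and by 0.89 ± 0.10 with wounding.

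Cells given both treatments also had 11 of these 27 genes above wounded cells and 13 above heat shocked cells, with 0 lower in either. Over all genes 6.31% were higher and 8.6% lower against wounded cells, and 2.71% higher and 1.58% lower against heat shocked cells. MMP1 was 2.16 ± 0.18 above wounding alone and 2.36 ± 0.18 above heat shock alone. PLAUR, the urokinase receptor, was 0.85 ± 0.08 above wounding alone (adjusted p = 4.37e-05), and CCL2, a chemokine for monocytes, was 1.13 ± 0.11 above heat shock alone (adjusted p = 0.000103). CXCL8, a neutrophil chemokine, gave 0.73 ± 0.19 for heat shock against control (adjusted p = 0.0266), a call lost without heat shocked replicate 1 or 2 or any 1 control array (adjusted p = 0.0584 to 0.108). In the direct comparison of heat shock with wounding, 0 were higher and 3 lower: CCL2 (-0.97 ± 0.11), HBEGF, an EGF receptor ligand (-0.51 ± 0.12), and PLAU, the urokinase (-0.31 ± 0.08). Over all genes 10.5% were called in that comparison, 4.51% higher and 6.01% lower, and 3 of 27 is near the share called. HBEGF was lost there without wounded replicate 2 or 3 or heat shocked replicate 3 (adjusted p = 0.0537 to 0.0687), and PLAU without any 1 of the heat shocked or wounded arrays (0.0504 to 0.0761). The limma interaction was called for 0 of the 27, and 4 had an unadjusted p under 0.05. At the smallest p, PLAU gave 0.52 ± 0.11 (adjusted p = 0.319).

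**Figure D5:**
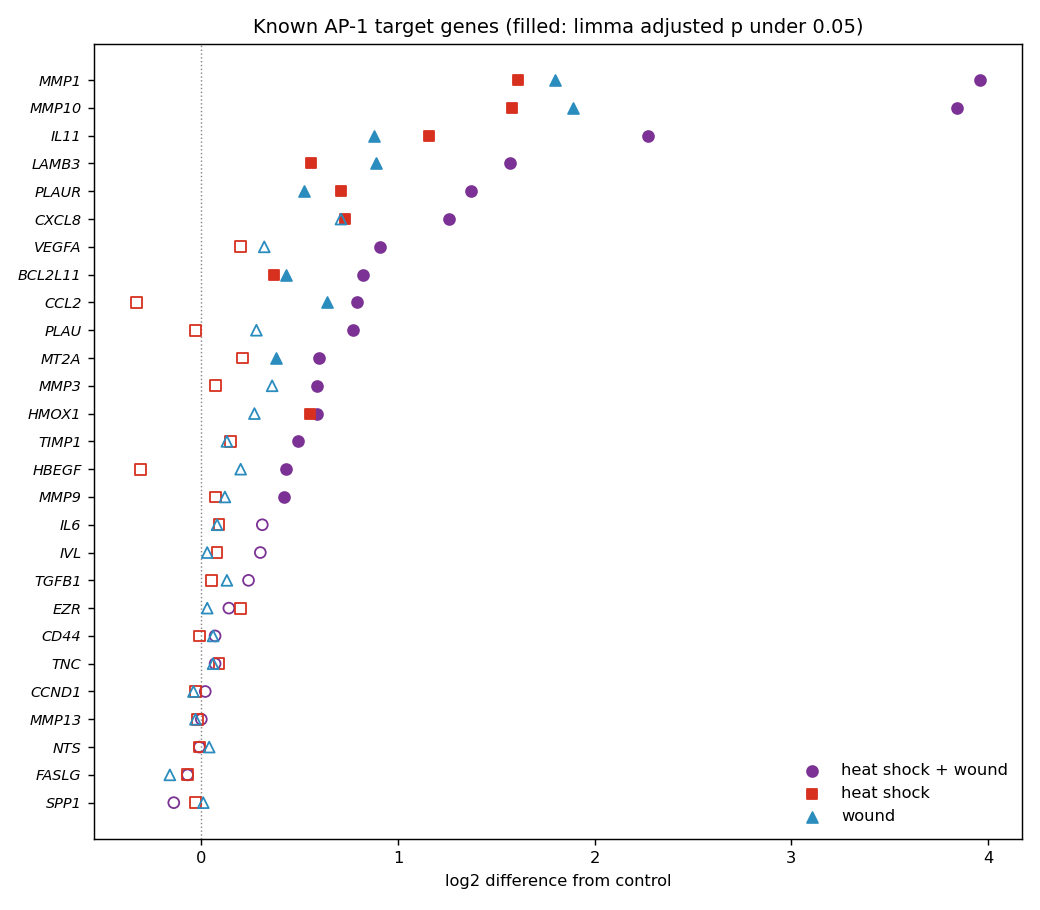
Difference from control in log2 units of 27 genes known as AP-1 targets, for heat shock with wounding, heat shock and wounding; points are limma estimates and filled points have an adjusted p under 0.05. With both treatments 16 are filled and all 16 lie above 0, led by MMP1 (3.96) and MMP10 (3.84).

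The MAP kinase cascades that act on FOS and JUN were represented by 22 measured genes of 27. Heat shock raised 3 and lowered 2 of them, wounding raised 1, and both treatments raised 4 and lowered 4. Over all genes 12.9%, 3.57% and 23.1% were called in these comparisons, and wounding's 1 of 22 is near its share. The same shares apply to the gene lists in the next paragraphs. MAP2K3, an activator of p38 kinases, was higher by 0.80 ± 0.11 with heat shock (adjusted p = 0.00075) and by 0.92 ± 0.11 with both treatments (adjusted p = 9.48e-05). MAP3K2, an upstream kinase of the JNK and ERK5 cascades, was higher by 0.61 ± 0.11 with wounding (adjusted p = 0.00605) and by 0.60 ± 0.11 with both. MAP3K1, which feeds the JNK cascade, was lower with heat shock (-0.37 ± 0.06, adjusted p = 0.00186) and with both treatments (-0.66 ± 0.06, adjusted p = 9.98e-06). The arrays measure RNA of these kinases and not their activity.

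SRF and its ternary complex partners, which hold the FOS promoter ready for MAP kinase signals, were among 10 genes, all measured. Both treatments raised 3 and lowered 2, heat shock raised 2 and lowered 2, and wounding raised 1, ELK3. ELK3, a ternary complex factor, was higher by 1.19 ± 0.08 with both treatments (adjusted p = 1.16e-06) and by 0.94 ± 0.08 with wounding (adjusted p = 8.08e-05). With heat shock it gave 0.30 ± 0.08 (adjusted p = 0.0378), a call lost without any 1 heat shocked array, wounded replicate 1 or 2, or control replicate 1 or 2 (adjusted p = 0.0506 to 0.15). The SRF coactivators MRTFA and MRTFB went opposite ways with both treatments, MRTFA by 0.63 ± 0.07 (adjusted p = 6.29e-05) and MRTFB by -0.90 ± 0.08 (adjusted p = 8.97e-06), and likewise with heat shock alone (0.49 ± 0.07 and -0.88 ± 0.08).

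Among 10 regulators of FOS and JUN mRNA decay and protein turnover, both treatments raised 2 and lowered 2, heat shock raised 1 and lowered 1, and wounding raised 1. ZFP36L1, which binds AU-rich elements and speeds mRNA decay, was higher by 0.63 ± 0.09 with both treatments (adjusted p = 0.000321) and by 0.62 ± 0.09 with wounding (adjusted p = 0.00239). Its relative ZFP36 was higher by 0.30 ± 0.07 with both treatments (adjusted p = 0.00594) and by 0.29 ± 0.07 with heat shock (adjusted p = 0.0121). HNRNPD, another AU-rich element binding protein, was lower with both treatments, at -0.34 ± 0.07 (adjusted p = 0.00345), and the mean of its probe sets gave -0.09 (adjusted p = 0.422).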

How the data were processed

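RNA of 12 A549 samples was measured on Affymetrix PrimeView arrays, with 100 ng of total RNA an array by the labels' protocols. The authors deposited 1 log2 level per probe set and array. The submitters' processing notes name RMA and Affymetrix Expression Console. RMA sets the probe values of all arrays to 1 distribution, so a shift of all genes together would not be seen. The deposited probe set levels still differed in spread, with interquartile ranges of 3.98 to 4.24. The arrays per group, 3, limit the precision. Of 49293 probe sets, 1 with a missing value was left out, 44987 had 1 gene symbol in the platform annotation, 1832 had several and 2473 were not listed. A gene's brightest probe set, by its average across all 12 arrays, stood for the gene, and 18132 genes were tested. By gene identifier, 44960 probe sets matched the RefSeq gene table of GRCh38.p14, the source of the coordinates and promoters.

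Groups came from the labels. The defaults of limma 3.58.1 (eBayes after lmFit and contrasts.fit, R 4.3.3) were used, in 1 model fitted to all 12 arrays with 1 mean per group and no replicate block. The groups share replicate numbers. Deviations of 18 same-numbered pairs of arrays correlated at -0.187 to 0.234 (median 0.057), with 6 over 0.1. The 36 other pairs correlated at -0.194 to 0.243 (median -0.026), with 7 over 0.1. On average, 8 of 12 arrays correlated best with their own number. Between heat shocked and wounded cells and wounded cells all 3 pairs were over 0.1 (0.103, 0.234 and 0.143), a sign of pairing in that comparison, where the block kept 5 members called. In the other comparisons the pairs did not all exceed 0.1. Adjusted p-values are Benjamini-Hochberg over all genes within each of 7 comparisons, with a threshold of 0.05. The pipeline was tested on simulated data. The alternatives were 3 other scalings, the mean of a gene's probe sets, each probe set as its own feature, a minimum mean of 5, only the arrays compared, a trended robust spread, array weights, a replicate block and leaving out each array; that for the dimmer FOSB probe set was added after its values were seen. The text names the 10 members with all their probe sets, the 3 genes most correlated with each member called against control, and the check genes GAPDH, ACTB, HSPA6 and EGR1. From each list, up to 4 called genes a comparison were picked by size of change (the smallest p where none passed). Not all of these are named, so a list gene left out of the text may still be called. The members, the gene lists and the tests were chosen with earlier results of these data known, so a list's direction is no independent evidence. Gene lists got counts and medians and no test. ACTB differed from control by at most 0.10 log2 units and was not called. The labels' sample codes give samples 1 and 2 of each group a shared stem and sample 3 another, which the labels do not explain.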

Additional observations from a re-analysis of the deposited data

How the results depend on the processing

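Of 70 differences (10 genes in 7 comparisons), 53 kept their side of the threshold under all the alternatives run (22, or 21 for the interaction, which needs all 4 groups), 6 were lost under some and 11 gained under some. The rises of FOS, JUN, JUNB and ATF3 after wounding, of FOSL1, JUN, JUNB and MAFF after heat shock, and of these 6 with both treatments against control were called under every alternative. With both treatments against wounding, the number of AP-1 genes called was 5, and it was 3 with each probe set as its own feature, 3 with only the arrays compared, and 3 to 5 when 1 array was left out. FOS was lost there under 14 alternatives (adjusted p up to 0.152) and JUN under 13 (up to 0.151). FOSL2 with both treatments against control was lost with cyclic loess (adjusted p = 0.0797), with the mean of its probe sets (0.417) and with only the arrays compared (0.0526). FOSL1 after wounding gained a call under 6 alternatives (0.0118 with a trended robust spread), and the mean of its probe sets gave FOSB calls after wounding (0.82) and heat shock (0.27). Cyclic loess changed the balance over all genes to 1935 higher and 1928 lower, against 1571 and 2609, with both treatments against control, to 1092 and 1110, against 894 and 1436, for heat shock against control, and to 1320 and 1168, against 1144 and 1560, for both against wounding. Array weights gave 3871 called genes for heat shock against control (2330 in the analysis above), 1436 for wounding against control (648) and 3381 for heat shock against wounding (1906). Only the arrays compared gave 1663 for both treatments against wounding (2704) and 300 for both against heat shock (779). Leaving out 1 array gave 1438 to 2594 called genes for heat shock against control (lowest without heat shocked replicate 1, and 1450 and 1530 without control replicates 1 and 2). For wounding against control the range was 306 to 722 (306 and 324 without wounded replicates 2 and 1, and 353, 386 and 425 without control replicates 1, 2 and 3). It was 1649 to 2936 for both against wounding (lowest without wounded replicate 1) and 498 to 790 for both against heat shock (498 without heat shocked and wounded replicate 2, 512 without heat shocked replicate 2). For heat shock against wounding it was 1182 to 2174 (lowest without heat shocked replicate 1, and 1188 and 1253 without wounded replicates 1 and 2). The interaction had 0 genes called with the mean of probe sets or a minimum mean of 5, and 2 with the trended spread or without control replicate 3. MAP2K5 after heat shock reversed to -0.07 with the mean of its probe sets, against 0.27 (adjusted p = 0.0439). Among the other list genes picked by size of change or smallest p, 2318 values kept their side and direction, 166 lost a call and 15 gained one. A further 24 differences changed sign while past the threshold in neither setting. With the replicate number as a block (the pairing is described with the processing), the members called were 4, 4, 8, 5, 5, 6 and 0 in the 7 comparisons, against 4, 4, 7, 5, 5, 6 and 0 without it. The added gene was FOSB with both treatments against control (adjusted p = 0.0319). Of the list genes, ELK3 (0.0604) and ELAVL1 (0.0541) after heat shock and SRF with both treatments against wounding (0.0551) were lost, and NFE2L1 after heat shock was gained (0.0242). The cause of these changes was not tested.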

Other observations

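ATF3 is also a gene of the integrated stress response, in which kinases that phosphorylate eIF2 favour translation of ATF4. Of 12 other genes of that response, all measured, both treatments raised 5 and lowered 3 against control (median 0.07), heat shock raised 4 and lowered 1 (median -0.05), and wounding changed 0 in limma, with 3 at an unadjusted p under 0.05 (median -0.01). Over all genes 23.1%, 12.9% and 3.57% were called in these comparisons. PPP1R15A, a subunit that directs eIF2 dephosphorylation, was nearest to a call after wounding, at 0.35 ± 0.10 (adjusted p = 0.1). TRIB3, a pseudokinase induced by ATF4, was higher by 0.79 ± 0.06 with heat shock (adjusted p = 1.2e-05) and by 0.60 ± 0.06 with both treatments (adjusted p = 3.14e-05). EIF2AK2, the eIF2 kinase PKR, was higher by 0.61 ± 0.06 with heat shock (adjusted p = 4.46e-05), and ASNS, asparagine synthetase, by 0.38 ± 0.06 (adjusted p = 0.0019). SESN2, a stress-induced inhibitor of mTORC1 signalling, was higher by 0.88 ± 0.19 with both treatments (adjusted p = 0.00452), and VLDLR, a lipoprotein receptor, was lower, at -0.93 ± 0.13 (adjusted p = 0.000278).

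Among 10 measured bZIP genes related to AP-1, heat shock raised 1 and lowered 1 against control, where 12.9% of all genes were called. Wounding and both treatments changed 0 against control, where 3.57% and 23.1% of all genes were called. JDP2, which pairs with JUN and represses AP-1 sites, had the largest called difference. It was 1.68-fold higher in heat shocked than in wounded cells (0.75 ± 0.09, adjusted p = 0.000313) and 0.44 ± 0.09 higher in heat shocked than in control cells (adjusted p = 0.00838). With both treatments it was 0.47 ± 0.09 above wounding alone (adjusted p = 0.00524), and wounding alone gave -0.31 ± 0.09 against control (adjusted p = 0.109). CREB5 was lower with both treatments than with wounding alone (-0.55 ± 0.15, adjusted p = 0.027). Its interaction, -0.78 ± 0.21, was not called (adjusted p = 0.544). ATF7 gave -0.39 ± 0.10 for heat shock against control (adjusted p = 0.0249), a call lost without heat shocked replicate 1 or 3 or any 1 control array (adjusted p = 0.0625 to 0.0848) and with the mean of its probe sets (-0.14, adjusted p = 0.228).

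The partners of small MAF proteins were 6 genes, all measured, and with both treatments 3 were lower than in control and 0 higher, where 14.4% of all genes were lower and 8.66% higher. NFE2L2, the activator of antioxidant genes also called NRF2, gave -0.66 ± 0.07 (adjusted p = 1.75e-05), NFE2L3 -0.99 ± 0.17 (adjusted p = 0.00117) and NFE2L1 -0.47 ± 0.11 (adjusted p = 0.0063), which the mean of its probe sets did not pass (-0.33, adjusted p = 0.0864). MAFF was higher in the same comparison.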
